A study of Rattus norvegicus with 3 samples.

Results

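The enzymes and transporters of central carbon metabolism were followed across 3 arrays of rat blood cells: glucose and lactate carriers, glycolysis, the pentose phosphate pathway, pyruvate dehydrogenase and the citrate cycle. The members are a list of 37 gene names, each represented by its brightest probe set, with array control probe sets left out. Of these names, 31 had a probe set annotated to that gene alone, out of 13892 genes with such a probe set. RNA came from peripheral blood mononuclear cells (mainly lymphocytes and monocytes) of 2-month-old male Sprague-Dawley rats. The control group is not described further in the labels, and the other groups ran on a treadmill downhill or uphill. There was 1 Affymetrix Rat Expression Array 230 2.0 per group, and the sources used here give neither the number of animals behind each array nor the running protocol or sampling time. No spread between replicates can be had from single arrays and no test was run, so each difference is between these arrays and not between the conditions.

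The other 6 names had no probe set of their own. Hk3, a hexokinase of white blood cells, matched no probe set, and Pkm2 is an earlier name of Pkm, which is in the list. Eno1, Pfkfb4 and Gapdh were covered only by probe sets that the annotation shares with other loci or, for Gapdh, also by array controls. Pgd was listed under an older locus name, and its gene number matches Pgd in the current rat gene table. Its values are given below but enter no count of the 31 members.

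Glycolysis splits glucose into pyruvate in the cytosol and yields a little ATP, and lactate dehydrogenase turns pyruvate into lactate that leaves the cell. The pentose phosphate pathway branches off glucose 6-phosphate and makes NADPH and ribose phosphate. In phagocytes that NADPH feeds the oxidative burst. Pyruvate that enters mitochondria becomes acetyl-CoA through pyruvate dehydrogenase and is oxidised in the citrate cycle. Resting lymphocytes rely largely on mitochondrial oxidation, whereas activated lymphocytes and inflammatory monocytes take up more glucose and produce lactate.

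Median intensities were 217 to 229 and the share of present calls 52.4% to 54.4%. Control probe sets for actin and Gapdh, read at the 3' and 5' ends as a check of RNA quality, had 3'/5' ratios of 2.39 to 2.87 and of 1.18 to 1.32, lowest on the control array for both. T cell markers were called present for 11 of 12 genes, and their summed intensity differed little (38047 on control, 36763 on downhill, 37568 on uphill). Cd4 was called absent on every array. The summed intensity of the 9 monocyte markers called present was 29133, 51989 and 49230 in that order, so both running arrays carried more monocyte signal. Cd163 and Ms4a7 of that list were called absent throughout. The 9 neutrophil markers summed to 37053, 16292 and 33955, and the 8 erythroid markers called present summed to 4408, 3646 and 8879. In cells measured in bulk, a larger share of a cell type and more RNA per cell cannot be told apart.

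No member differed 2-fold between any pair of arrays, and none of those above the floor differed 1.5-fold. The floor was an intensity of 353, the median of all gene values, which the brighter of the arrays compared had to reach. It was reached on at least 1 array by 25 of the 31 members. Between downhill and control 1.1% of 7264 genes differed at least 2-fold, between uphill and control 1.37% of 7324, and between downhill and uphill 0.892% of 7173. At 1.5-fold the shares of all genes were 5.7%, 6.46% and 4.43%. Against shares this small, 0 of 25 members is near the background.

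By any size, 16 of 25 members were higher on downhill than on control (64.0%, against 49.3% of all genes) and 19 of 25 on uphill (76.0%, against 54.5%). At 1.2-fold, a threshold chosen after the values were seen, 7 of 25 members were higher on downhill than on control (28.0%, against 16.4% of all genes) and 0 were lower (against 16.1%). They were Taldo1, Ldhb, Slc2a1, Tkt, Slc16a3, Slc16a1 and Suclg1. On uphill against control 5 members were higher (20.0%, against 18.2% of all genes) and Pfkm alone was lower (4.0%, against 15.8%). The higher ones were Tkt, Taldo1, Aldoa, Pkm and Slc2a1. Both comparisons use the same control array, so its own deviation enters both.

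These differences were set beside the disagreement between probe sets of 1 gene. Over 1269 genes whose 2 brightest probe sets both passed the floor, these gave downhill minus control log2 differences that lay a median of 0.15 apart, with a 95th percentile of 0.63. For uphill minus control these gaps were 0.21 and 0.75. Of the members above the floor, none had a log2 difference past the 95th percentile in any of the 3 comparisons, and 11 of 25 lay under the median gap between downhill and control, 17 of 25 between uphill and control. Aldoc, under the floor and called absent on downhill, was at -0.68 there. The median log2 difference of the members above the floor was 0.08 on downhill and 0.14 on uphill, against -0.01 and 0.03 for all genes above the floor.

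**Figure D1:**
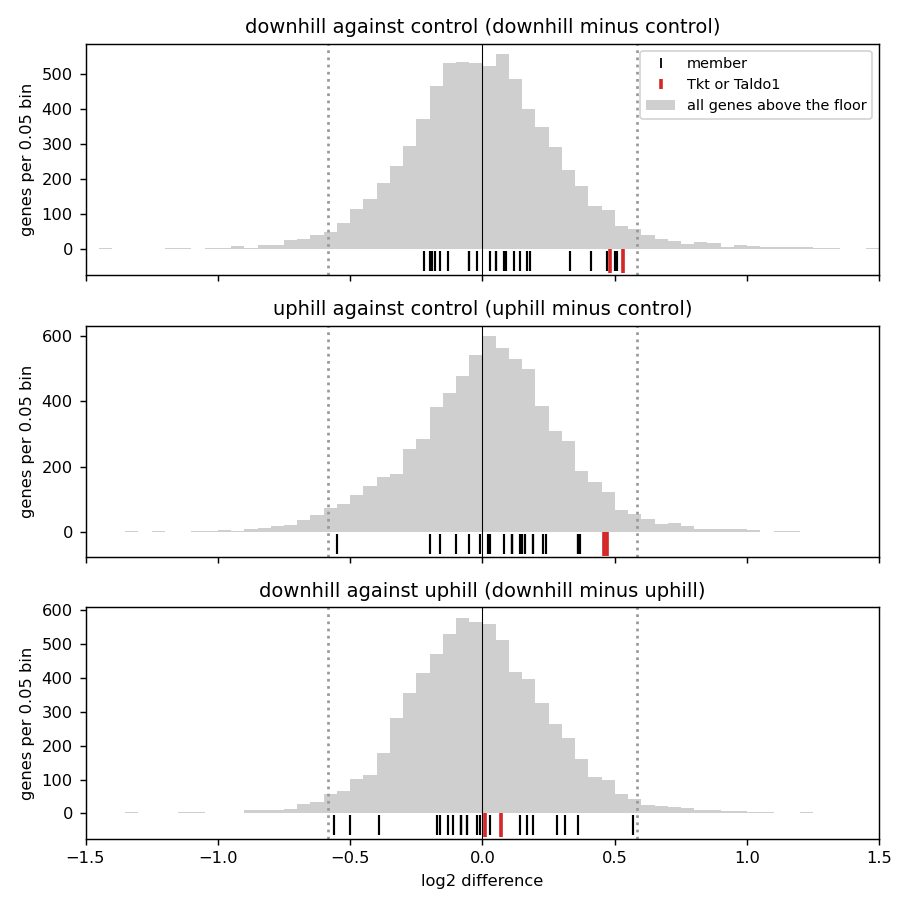
Histograms of log2 differences over all genes above the floor (grey, genes per bin of 0.05) for the 3 pairs of arrays, with 1 tick below each histogram per member above the floor and the dotted lines at 1.5-fold. Every member tick lies between the dotted lines, and the red ticks of Tkt and Taldo1 sit between 0.46 and 0.53 against control but at 0.01 and 0.07 between downhill and uphill.

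The pentose phosphate members were higher than control on both running arrays, by similar amounts. Taldo1 encodes transaldolase, which with transketolase shuttles carbon between sugar phosphates. It had an intensity of 3749 on control, 5413 on downhill and 5158 on uphill, which is 1.44-fold and 1.38-fold higher than control. Upward differences of at least this size were seen in 4.20% of genes on downhill and 6.14% on uphill. Tkt, transketolase, had 4465, 6226 and 6184, or 1.39-fold and 1.38-fold higher. Both genes therefore stood higher on each running array, and the running arrays were nearly level, with log2 differences of 0.07 and 0.01 between downhill and uphill.

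Pgd, the dehydrogenase that releases carbon dioxide and makes NADPH in the oxidative branch, had the same pattern under its older locus name. Its intensity was 1450 on control, 1962 on downhill and 2002 on uphill, which is 1.35-fold and 1.38-fold higher. The median log2 difference of the pathway was 0.50 on downhill and 0.47 on uphill from Tkt and Taldo1, and 0.48 and 0.47 with Pgd. A dim Tkt probe set, called absent on all arrays, gave 0.09 and 0.01. The monocyte marker sum was also higher on both running arrays, by 1.78-fold and 1.69-fold, and the natural killer sum by 1.18-fold and 1.11-fold. The neutrophil sum (0.44 and 0.916 times control) and the T cell and platelet sums were lower on both. The part of these cell types in the pentose phosphate differences was not tested. On the Rnor3.4 assembly Tkt aligned to chromosome 16 (5909452 to 5934354, plus strand) and Taldo1 to chromosome 1 (201582857 to 201593186, plus strand).

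The remaining pentose phosphate genes differed less. Of 5 other genes of the pathway counted above the floor, 4 were higher on downhill and 4 on uphill, with medians of 0.22 and 0.12 (49.3% and 54.5% of all genes were higher), and none differed 1.5-fold. Rpe, the ribulose phosphate epimerase, was 1.25-fold and 1.10-fold higher, and Rbks, ribokinase, 1.25-fold and 1.05-fold. Pgls, the lactonase of the oxidative branch, was 1.12-fold and 1.09-fold higher. Rpia, the ribose phosphate isomerase, had log2 differences of 0.22 and 0.19, but its other probe set gave -0.19 and -0.49.

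Because Pgd, Tkt and Taldo1 stood together, the 250 bases before each annotated start are shown, from RefSeq on GRCr8, 5′ to 3′ along the gene's strand. They were searched on both strands for ACGTG, the core of the hypoxia response element, and for TGACNNNGC, the core of the antioxidant response element. Neither core occurs in these windows, so they carry no capitals.
Pgd promoter, chr5:164882030-164882279, minus strand: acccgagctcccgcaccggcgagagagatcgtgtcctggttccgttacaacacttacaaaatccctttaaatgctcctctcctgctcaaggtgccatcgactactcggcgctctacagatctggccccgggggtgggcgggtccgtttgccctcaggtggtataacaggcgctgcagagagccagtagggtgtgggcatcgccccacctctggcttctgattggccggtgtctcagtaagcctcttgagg
Tkt promoter, chr16:5729982-5730231, plus strand: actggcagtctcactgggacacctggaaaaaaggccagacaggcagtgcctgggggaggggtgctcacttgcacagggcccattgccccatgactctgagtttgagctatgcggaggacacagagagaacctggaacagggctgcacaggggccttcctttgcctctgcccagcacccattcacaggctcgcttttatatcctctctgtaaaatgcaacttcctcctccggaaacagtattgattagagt
Taldo1 promoter, chr1:205922946-205923195, plus strand: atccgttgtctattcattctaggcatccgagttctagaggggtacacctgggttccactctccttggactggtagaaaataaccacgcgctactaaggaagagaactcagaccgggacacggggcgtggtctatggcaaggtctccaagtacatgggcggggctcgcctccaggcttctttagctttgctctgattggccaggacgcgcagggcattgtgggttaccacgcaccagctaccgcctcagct
The lack of a match says only that these letters are not in the windows shown. The cores were found in 16.6% and 10.1% of 33469 promoter windows of the same length.

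**Figure D2:**
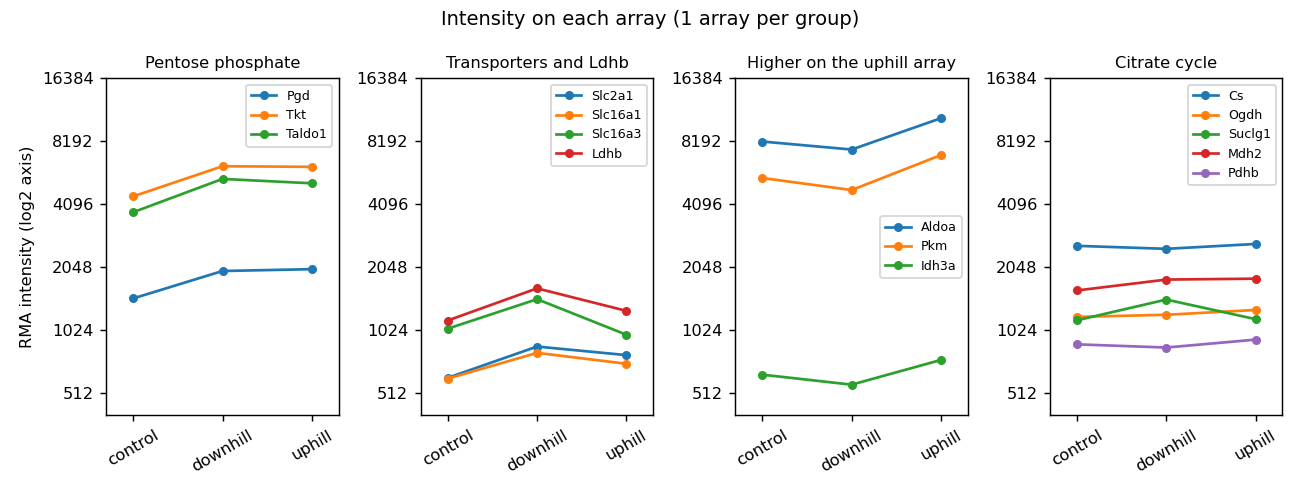
RMA intensity (log2 axis) of selected genes on the control, downhill and uphill arrays, 1 array per group, with lines joining the values of 1 gene. Pgd, Tkt and Taldo1 are higher on both running arrays than on control. Of the other genes, Slc2a1, Slc16a1, Slc16a3, Ldhb and Suclg1 peak on downhill. Aldoa, Pkm and Idh3a are lowest on downhill and highest on uphill.

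Of the 4 carriers of glucose and lactate among the members, 3 were above the floor, and these were higher on downhill than on control, where 49.3% of all genes were higher. Slc2a1 encodes the basal glucose transporter GLUT1 and had intensities of 604 on control, 853 on downhill and 776 on uphill, or 1.41-fold and 1.28-fold higher. Slc16a3 encodes MCT4, the lactate exporter of glycolytic cells, and had 1039, 1438 and 972. It was thus 1.38-fold higher on downhill and 1.07-fold lower on uphill than on control. Between downhill and uphill it was 1.48-fold higher, a difference reached upward by 2.40% of genes.

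For Slc16a1, which encodes the lactate carrier MCT1, the probe sets disagreed. The brighter one had 599, 796 and 706, or 1.33-fold and 1.18-fold higher on the running arrays. The other, called absent on all arrays, gave log2 differences of -0.64 and -0.60, and the mean of both gave -0.11 and -0.18. Slc2a3, the high-affinity transporter GLUT3, was called absent on every array, so no fold is given. Among other carriers, Emb, embigin, an accessory protein of lactate carriers, was 1.44-fold higher on downhill and 1.82-fold higher on uphill (1960, 2822 and 3559). Bsg, basigin, the partner of MCT1 and MCT4, was higher by 0.26 and 0.11 on the log2 scale. Slc2a4, the insulin-responsive transporter GLUT4, was lower on both, 1.57-fold and 1.32-fold, although its other probe set gave log2 differences of only -0.22 and -0.11. Slc2a6 was 1.31-fold higher on downhill and 1.07-fold lower on uphill.

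Of the hexokinases, which trap glucose in the cell, only Hk1 was measured above the floor. Hk1, the constitutive form, had 1925 on control, 1694 on downhill and 1721 on uphill, or 1.14-fold and 1.12-fold lower. The annotation gave no genome alignment for this Hk1 probe set. Hk2, the inducible form, was called absent on every array. Gpi, which isomerises glucose 6-phosphate, had 3493, 3616 and 3893 and differed by 1.04-fold and 1.11-fold upward, with the downhill difference turning to -0.01 on the log2 scale after quantile normalization.

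Phosphofructokinase, the committed step of glycolysis, was lower where it was measured above the floor. Pfkp, the platelet form, had 1235, 1058 and 1189, or 1.17-fold lower on downhill and 1.04-fold lower on uphill. The sum of 8 platelet markers was 80507, 67464 and 76761, lowest on downhill like Pfkp. This order is not particular to platelets, since the neutrophil, T cell, B cell, erythroid and skeletal muscle sums were also lowest on downhill. The downhill sum was 0.838 times control for platelet and 0.44 times for neutrophil markers. The part of any of these cell types in the Pfkp difference was not tested. Pfkm, the muscle form, had 376, 327 and 258 and was 1.46-fold lower on uphill, the member furthest below control on that array. That value just exceeded the floor on control alone, and the other Pfkm probe sets, called absent, gave uphill log2 differences of 0.04 and -0.39. Pfkl, the liver form, was present on all arrays but under the floor (327, 339 and 305). Of the PFKFB enzymes, which set the level of its activator fructose 2,6-bisphosphate, the brighter Pfkfb3 probe set was called absent. The dimmer Pfkfb3 probe set, called present at 139, 138 and 112, was under the floor.

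Aldoa and Pkm, at the middle and the end of glycolysis, were lowest on downhill and highest on uphill. Aldoa, the main aldolase, had 8174 on control, 7482 on downhill and 10575 on uphill, and was 1.29-fold higher on uphill than on control. Pkm, the pyruvate kinase of most tissues, had 5468, 4788 and 7042, also 1.29-fold higher. Between downhill and uphill Aldoa was 1.41-fold lower and Pkm 1.47-fold lower, differences reached downward by 3.85% and 2.73% of genes. The Aldoa probe set aligned to 2 places in Rnor3.4 and that of Pkm to 3, so related sequences elsewhere may share their signal. The erythroid marker sum was 2.01 times the control value on uphill and 0.827 times on downhill, in the same order as these genes. The B cell sum (1.15 and 0.951 times) had that order too. So did the sum of the 2 skeletal muscle markers called present (1.27 and 0.977 times). The part of any of these cell types in Aldoa and Pkm was not tested.

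Among the other lower glycolytic enzymes, Tpi1 and Pgam1 were nearly level across the arrays. Tpi1, triose phosphate isomerase, had 2047, 2321 and 2033, and Pgam1, phosphoglycerate mutase, had 5565, 5936 and 6168, with no difference from control above 1.13-fold. The Pgam1 probe set aligned only to chromosome 2 at 1 place, whereas the Pgam1 gene lies on chromosome 1 in GRCr8. Which locus gave its signal was not tested. The Tpi1 probe set aligned to 3 places. Of 2 probe sets shared by Pgk1 and a related locus, 1 had 4613, 4685 and 4297 and the other 6275, 5535 and 5246, the latter at a log2 difference of -0.26 on uphill. The probe set annotated to Pgk1 alone was called absent. The probe set shared by Eno1 and related loci had 2977, 3211 and 3423, and that shared by Gapdh and 7 other loci had 14880, 12833 and 14965, or 1.16-fold lower on downhill. Aldoc, the brain aldolase, was under the floor (345, 215 and 294) and called absent on downhill, at least 1.60-fold below control.

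The lactate dehydrogenases differed from each other on downhill. Ldha, the muscle-type subunit that favours lactate formation, had 7685 on control, 7979 on downhill and 8308 on uphill, differences of 1.04-fold and 1.08-fold. Its probe set aligned to 4 places. Ldhb, the heart-type subunit that favours pyruvate formation, had 1137, 1620 and 1264. It was 1.43-fold higher on downhill, a size reached upward by 4.53% of genes, and 1.11-fold higher on uphill. Over the 10 glycolytic enzymes above the floor, 5 were higher and 5 lower on downhill (49.3% of all genes were higher), with a median log2 difference of -0.04. On uphill 6 were higher (54.5% of all genes) and the median was 0.13.

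**Figure D3:**
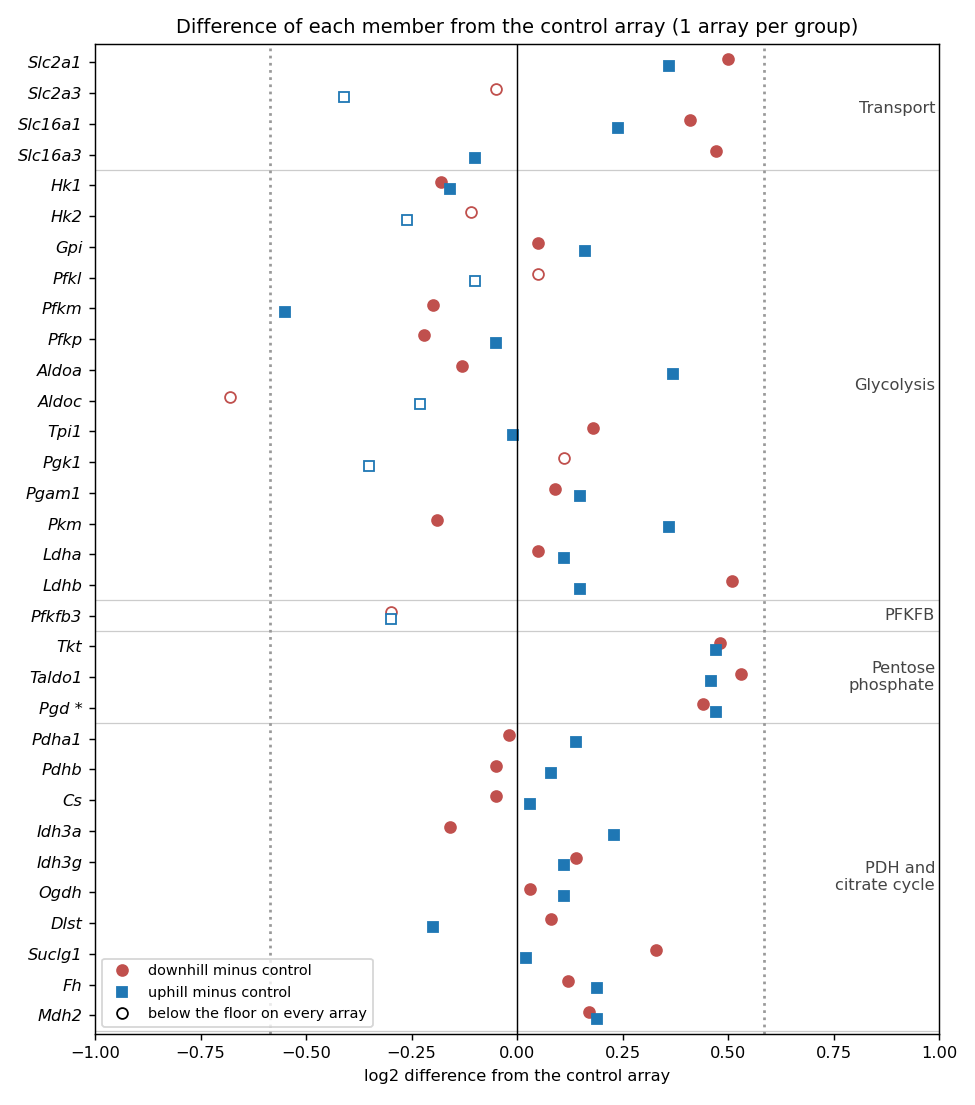
Log2 difference of each member from the control array on the downhill (circles) and uphill (squares) array, grouped by pathway, with open symbols for members below the floor on every array, dotted lines at 1.5-fold, and an asterisk for Pgd, which was named through its gene number. The pentose phosphate genes lie between 0.44 and 0.53, whereas the citrate cycle enzymes lie between -0.20 and 0.33.

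Pyruvate dehydrogenase and the citrate cycle were close to control on both running arrays. Pdha1 and Pdhb, the subunits of the enzyme that commits pyruvate to oxidation, had 5561, 5471 and 6109 and 874, 844 and 921. The differences were at most 1.10-fold, and the second Pdha1 probe set gave -0.15 on uphill where the brighter gave 0.14. Cs, citrate synthase, had 2589, 2505 and 2643, and its 4 probe sets gave log2 differences between -0.16 and 0.13 on downhill. Its uphill difference of 0.03 turned negative under quantile normalization and cyclic loess.

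The later steps differed from control by at most 1.26-fold, in both directions. Ogdh and Dlst, subunits of oxoglutarate dehydrogenase, had 1183, 1211 and 1277 and 1026, 1084 and 890, so Dlst was 1.15-fold lower on uphill. Fh, fumarase, had 510, 554 and 583, and Mdh2, mitochondrial malate dehydrogenase, had 1583, 1785 and 1803, so both were higher on each running array by between 1.09-fold and 1.14-fold. Suclg1, a subunit of succinyl-CoA ligase, had 1139, 1432 and 1154 and was 1.26-fold higher on downhill, the largest difference of the cycle's members there. Of the NAD-linked isocitrate dehydrogenase, the catalytic Idh3a had 626, 561 and 736 and the regulatory Idh3g 2320, 2552 and 2495. Idh3a was 1.12-fold lower on downhill than on control and 1.31-fold lower than on uphill. Idh3g was 1.10-fold higher on downhill than on control and 1.02-fold higher than on uphill.

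Over the 10 members, 6 were higher on downhill and 9 on uphill, against 49.3% and 54.5% of all genes, with medians of 0.06 and 0.11. Other genes of pyruvate and citrate metabolism held wider differences. Me1, the cytosolic malic enzyme that makes NADPH, had 2072 on control, 1101 on downhill and 1454 on uphill, or 1.88-fold and 1.42-fold lower. Its other probe set gave -1.14 and -0.73 on the log2 scale, the same direction. Idh2, the mitochondrial NADP-linked isocitrate dehydrogenase, had 538, 799 and 745, or 1.48-fold and 1.38-fold higher. Sdhb, the iron-sulphur subunit of succinate dehydrogenase, was 1.63-fold and 1.23-fold higher. Idh1, the cytosolic NADP-linked isocitrate dehydrogenase, had 536, 534 and 687, and was 1.28-fold higher on uphill. Of 23 such genes counted above the floor 13 were higher on downhill and 12 on uphill, with medians of 0.03 and 0.00, against the shares of all genes given above.

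The downhill and uphill arrays were also compared directly, although with 1 array each an effect of slope cannot be told from a difference between arrays. Of 24 members above the floor, 10 were higher on downhill (41.7%, against 46.1% of all genes) and 14 lower, and the median log2 difference was -0.04. At 1.2-fold Slc16a3, Ldhb, Suclg1 and Dlst were higher on downhill (16.7% of members, 14.2% of all genes) and Aldoa, Pkm and Idh3a lower (12.5%, 16.7%). These shares are near the background. The median was 0.04 for pentose phosphate, -0.06 for glycolysis and -0.08 for the citrate cycle.

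Genes that regulate glycolysis or branch from it included wider differences than the enzymes. Egln3, an oxygen-sensing prolyl hydroxylase that marks hypoxia-inducible factor for breakdown, had 640 on control, 381 on downhill and 363 on uphill, or 1.68-fold and 1.76-fold lower. Egln2, a related hydroxylase, was higher, 1.24-fold on downhill and 1.72-fold on uphill (1291, 1601 and 2221). Txnip, which restrains glucose uptake, had 9231, 7857 and 12927, lower on downhill by 1.17-fold and higher on uphill by 1.40-fold. Hif1a, the hypoxia-inducible factor subunit named after its values were seen, had 5965, 6198 and 6870. Stat3 was 1.83-fold higher on uphill by its brighter probe set, but the other gave a log2 difference of 0.10. Of 12 regulators above the floor, 5 were higher on downhill and 8 on uphill, where 49.3% and 54.5% of all genes were higher.

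Of the 8 branch genes of glycolysis above the floor, 2 were higher on downhill and 3 on uphill, against the same shares of all genes. Bpgm, the red cell enzyme that makes 2,3-bisphosphoglycerate, had 772, 682 and 2766 and was 3.58-fold higher on uphill, together with the erythroid markers, a list to which it belongs. Gpd2, the mitochondrial glycerol phosphate dehydrogenase, was 1.35-fold and 1.46-fold higher, whereas its other probe set gave -0.14 and -0.11. Pgm2, a phosphopentomutase, was 1.38-fold and 1.11-fold higher. Ldhc, the testis lactate dehydrogenase, was dim (125, 88 and 114) and called absent on downhill.

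**Figure D4:**
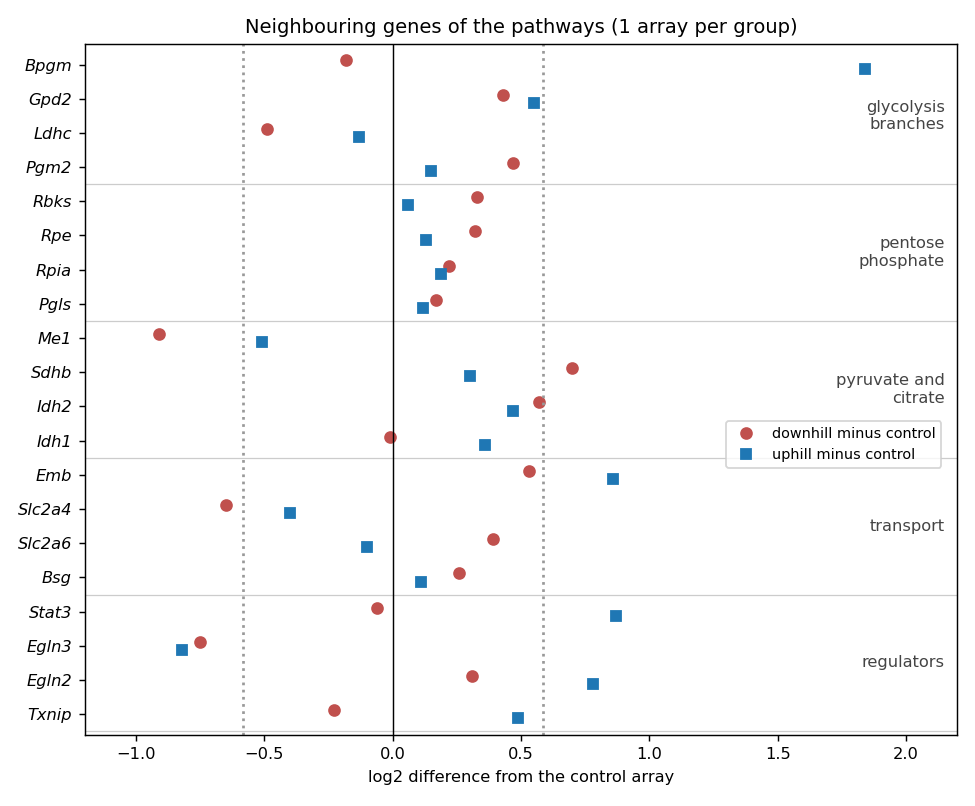
Log2 difference from control on the downhill (circles) and uphill (squares) array for up to 4 genes of each neighbouring list, with dotted lines at 1.5-fold. Bpgm at 1.84 on uphill and Me1 at -0.91 on downhill lie furthest out, and Egln3 lies at -0.75 and -0.82.

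Glycolytic genes are classic targets of hypoxia-inducible factor, so the available promoter windows, for 33 of the 37 names, were searched for its core ACGTG. Slc2a3, Pgk1, Idh3a and the alias Pkm2 were not searched. Of 37 windows of these genes, taken over all the pathways, 14 held ACGTG (37.8%, against 16.6% of all windows). The 14 include Idh3g, Ogdh and Pdhb, which are not glycolytic, and Hk1 and Aldoa also had windows without it. TGACNNNGC was held by 4 (10.8%, against 10.1%). Slc2a1 and Ldha are shown, a choice made after their values were seen, because both are textbook targets that differed unequally here, 1.41-fold and 1.04-fold above control on downhill. Capitals mark ACGTG on either strand, which reads CACGT on the other, and CACGTG is a match on both strands. It lies 51 bases before the start in Slc2a1, and at 87, 86 and 73 bases in Ldha.
Slc2a1 promoter, chr5:138002272-138002521, plus strand: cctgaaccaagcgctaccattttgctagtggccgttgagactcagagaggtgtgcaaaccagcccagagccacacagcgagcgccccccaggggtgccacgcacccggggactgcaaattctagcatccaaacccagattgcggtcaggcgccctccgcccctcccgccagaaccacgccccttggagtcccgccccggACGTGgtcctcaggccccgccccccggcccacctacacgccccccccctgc
Ldha promoter, chr1:106507842-106508091, plus strand: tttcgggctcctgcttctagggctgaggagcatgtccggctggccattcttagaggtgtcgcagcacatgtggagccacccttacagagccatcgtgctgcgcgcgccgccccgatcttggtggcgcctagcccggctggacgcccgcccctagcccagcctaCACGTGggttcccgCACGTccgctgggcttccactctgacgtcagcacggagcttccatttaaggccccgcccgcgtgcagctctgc
Among the 24 searched members above the floor, the 10 with the core had a median log2 difference on downhill of 0.04 (-0.20 to 0.50), and the 14 without it 0.15 (-0.22 to 0.53). On uphill the medians were 0.11 and 0.14. A match is a description of the sequence and no evidence of binding.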

How the data were processed

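Per the submitters' processing notes, the deposited intensity values were made by RMA, which corrects background, normalizes by quantiles and summarises probe sets. They are on a linear scale in the deposited matrix, and a later scaling by the authors is not recorded. The deposited present, marginal or absent calls come from an algorithm not given in the sources used here. Of 31099 probe sets on each of 3 arrays, 19628 carried 1 gene symbol, 800 several and 10671 none, and 57 were controls. Values were taken to log2 without an offset. The brightest probe set by mean intensity stood for each gene. Folds are ratios of intensity, written "at least" where the dimmer array was called absent.

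The design (1 array per group) allows no test, and the number of arrays limits the precision. All members are named, with up to 4 genes of each neighbouring list that differed most and were present, and exceptions are said in the text. A few genes of the neighbouring lists are not reported here and enter no count of those lists. Members and lists were chosen with earlier results of these data known. Alternatives were a 1.5-fold threshold, other floors, other normalizations (limma 3.58.1 in R 4.3.3), other probe sets and an offset of 32. The 1.2-fold threshold and updated symbols were added after the data were seen. Scripts ran in Python 3.11.15 and were tested on simulated data.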

Additional observations from a re-analysis of the deposited data

Results flagged for a closer look

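4 members lay on opposite sides of the control array on the running arrays, by at least 0.1 on the log2 scale each way after rounding. Slc16a3 reached this on uphill only through the rounding. The difference between the runs was not tested, since each group had 1 array. Slc16a3 was at 0.47 on downhill and -0.10 on uphill. Aldoa was at -0.13 and 0.37, Pkm at -0.19 and 0.36, and Idh3a at -0.16 and 0.23.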

How the results depend on the processing

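No member was called at 2-fold in any of the 3 comparisons, in the main run or in any alternative run that kept this threshold. None was called at 1.5-fold either. Aldoc, below the floor and called absent on downhill, was at least 1.60-fold lower there than on control. At 1.2-fold, added after the data were seen, 7 members were called between downhill and control, 6 between uphill and control and 7 between downhill and uphill. The medians of the 3 pathways moved by less than the median gap between probe sets of 1 gene under every alternative run, but some changed sign. The glycolysis median of 0.13 on uphill became -0.03 with no floor. That of -0.04 on downhill became 0.05 with the floor at the 75th percentile, the mean of probe sets or the second brightest probe set. The citrate cycle median of -0.08 between downhill and uphill became 0.01 with the second brightest probe set. The pentose phosphate median stayed between 0.41 and 0.53 on downhill and between 0.35 and 0.47 on uphill. In the run with the second brightest probe set, however, the dim Tkt probe set fell under the floor. The median there, 0.53 and 0.46, was that of Taldo1 alone, which has 1 probe set and so could not move. Of 93 member differences, 14 moved by more than that gap with the second brightest probe set and 5 with the mean of all probe sets, and none did under the other normalizations or the offset. Among all 93, signs changed for 10 and 5 under these choices of probe set, at most from 0.55 and 0.41 in size. Some of those had not moved by more than the gap, and some that had moved kept their sign. Under quantile normalization 4 changed sign, and none of these exceeded 0.06. Only 7 of the 31 members had over 1 probe set, so the differences of all other members could not move under either choice of probe set. No paired analysis was possible because each group has 1 array. Leaving out an array was not possible for the same reason.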
